A study of Mus musculus with 4 samples.

Results

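Arg1-high C1q macrophages are tumour macrophages that carry transcripts of both the complement component C1q and arginase 1. They were 1188 of the 20607 kept cell barcodes in single-cell RNA sequencing of 2 mouse tumour matrices, and 1188 of the 2706 C1q macrophages in them. A kept barcode had at least 200 genes, at least 500 unique molecular identifiers (UMIs, one per captured transcript) and under 10% mitochondrial UMIs. A C1q macrophage had at least 3 UMIs over C1qa, C1qb and C1qc, at most 4 over the neutrophil genes S100a8 and S100a9, none over the T cell genes Cd3d, Cd3e and Cd3g, and at most 1 over the keratins Krt8 and Krt18. Members, called Arg1-high here, were chosen by their measured Arg1 share, at least 0.1% of the barcode's UMIs. The other 1518 are called Arg1-low.

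OV2944-HM1 cells, an ovarian cancer line of the mouse, were injected (1000000 per mouse) under the skin of the right flank of B6C3F1 mice aged 6 to 8 weeks. The IL-27 group received 100 ng of recombinant mouse interleukin 27 per mouse into the tumour on the day of implantation and every other day, and the control group received vehicle on the same days. Cells were released by digestion on day 14, red cells were lysed, and cells were enriched with magnetic beads against CD45, which all white blood cells carry on their surface. All animals of both groups carried this 1 tumour line and no genotype other than the strain is given, and how many animals went into each library is not stated in the labels. There are 4 labelled entries (2 for each treatment), yet the counts came as a single matrix per treatment in which barcodes cannot be traced to an entry. Each group is therefore n = 1, with neither a test nor a replicate check on any difference.

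C1q, the first component of the classical complement pathway, is made by macrophages of tissues and tumours, unlike most complement proteins, which come from the liver. Arginase 1 splits arginine into ornithine and urea. It marks macrophages activated by interleukin 4 and also macrophages of tumours short of oxygen, where arginine use by myeloid cells is known to restrain T cells. Interleukin 27 signals through a receptor of Il27ra and gp130 (Il6st) and activates STAT transcription factors, STAT3 among them.

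The members numbered 525 in the IL-27 matrix and 663 in the control matrix, against 652 and 866 Arg1-low macrophages of the IL-27 and control matrices. They made up 5.26% of kept barcodes in the IL-27 matrix (exact 95% binomial interval 4.83 to 5.71) and 6.24% in the control matrix (5.79 to 6.72), a ratio of 0.842 (0.749 to 0.945). Of the C1q macrophages they were 44.6% in the IL-27 matrix (41.7 to 47.5) and 43.4% in the control matrix (40.9 to 45.9), a ratio of 1.03 (0.916 to 1.16). C1q macrophages as a whole numbered 1177 of 9990 kept barcodes in the IL-27 and 1529 of 10617 in the control matrix, and their split by Arg1 differed by less than counting error. All intervals in this text are at 95% and cover counting error only, not the spread between animals. The share among kept barcodes also moved with depth: members had a median of 2558 UMIs in the IL-27 matrix and 3374 in the control matrix, and when every kept barcode was first thinned to 1000 UMIs the shares were 3.57% in the IL-27 matrix and 3.85% in the control matrix. Fewer cells of a type and less RNA per cell cannot be told apart by a rule that counts UMIs.

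Arg1 itself chose the members, so its level is given as a description. The gene lies on chromosome 10 (chr10:24915221-24927484, minus strand, GRCm38). Its median share of a member's UMIs was 0.281% in the IL-27 matrix and 0.268% in the control matrix, with highest values of 2.56% and 1.29% in the IL-27 and control matrices. The distribution had no gap at 0.1%: 59 members of the IL-27 matrix and 49 of the control matrix lay between 0.10% and 0.12%, and 41 and 53 macrophages of the IL-27 and control matrices lay just outside, between 0.08% and 0.10%. Most Arg1-low macrophages had no Arg1 UMI at all, 419 of 652 in the IL-27 matrix and 591 of 866 in the control matrix. At low depth 1 UMI was enough to make a member. This was so for 26 members of the IL-27 matrix and 23 of the control matrix, while 446 and 594 members of the IL-27 and control matrices had 3 or more Arg1 UMIs. The class is a range of Arg1 levels above a set threshold, and whether its cells form a type of their own was not tested. The plot of Arg1 shares shows this.

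**Figure D1:**
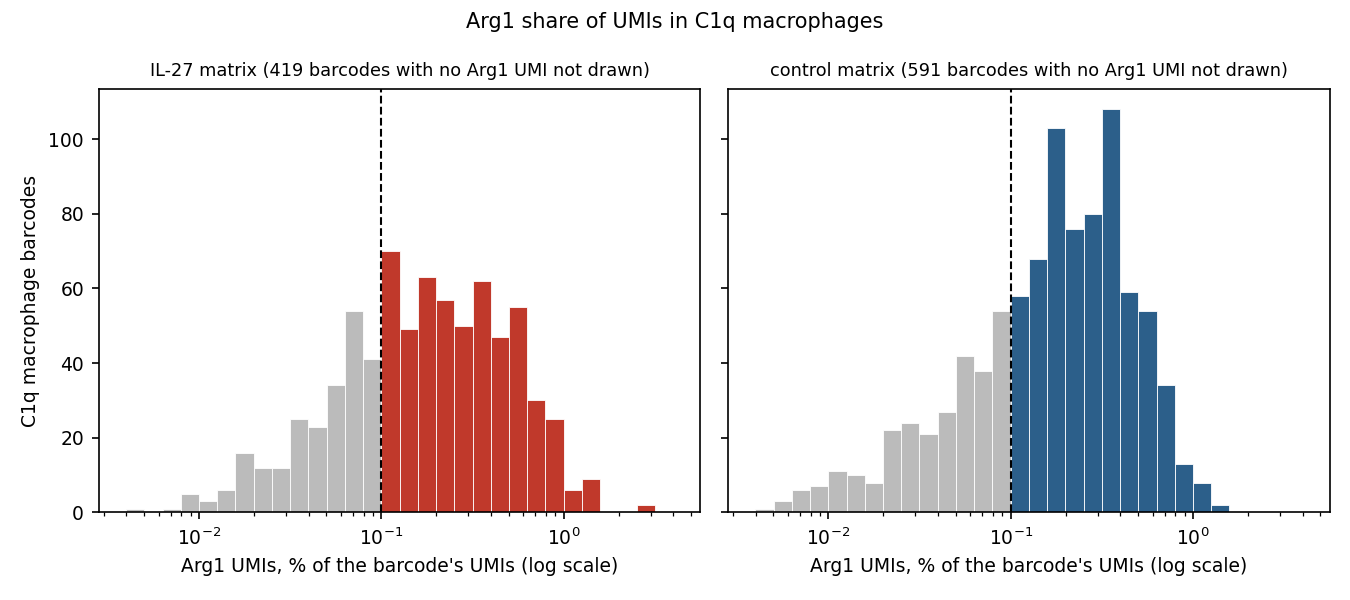
Number of C1q macrophage barcodes (vertical axis) by the share of their UMIs that were Arg1 (horizontal axis, percent, log scale), IL-27 matrix on the left and control matrix on the right. Coloured bars are the members, grey bars the Arg1-low macrophages with at least 1 Arg1 UMI, and the dashed line is the 0.1% threshold, which falls within a continuous range in both matrices.

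The members held 36.4% of all Arg1 UMIs of kept barcodes in the IL-27 matrix and 45.0% in the control matrix. Barcodes outside the C1q gate reached 0.1% Arg1 as well, 1192 in the IL-27 matrix and 989 in the control matrix, and 1167 and 945 of those in the IL-27 and control matrices had under 3 C1q UMIs. One such group was set apart by a rule chosen here, at least 3 UMIs over the macrophage elastase gene Mmp12 and Dcstamp with under 3 C1q UMIs. The limits on S100a8, S100a9, Cd3 and keratin UMIs were those of the C1q gate. Of these barcodes 335 of 742 in the IL-27 matrix (45.1%) and 302 of 664 in the control matrix (45.5%) had at least 0.1% Arg1. Members also reached 3 UMIs over Mmp12 and Dcstamp, 243 in the IL-27 matrix (46.3%) and 384 in the control matrix (57.9%). The C1q cutoff alone kept these members out of that group. Free RNA gives every barcode some foreign UMIs, so the share with an Arg1 UMI was also taken in neutrophils (at least 20 S100a8 and S100a9 UMIs and no C1q or Cd3 UMI) and in T cells (at least 2 Cd3 UMIs and no C1q UMI). After thinning to 1000 UMIs, an Arg1 UMI was found in 3.79% and 2.09% of neutrophils and 2.64% and 2.07% of T cells of the IL-27 and control matrices. The members were chosen by Arg1, so no such share is set beside these. Before thinning these shares were 5.94% and 4.28% of neutrophils and 6.14% and 6.81% of T cells, at median depths of 1783.5 and 2343 UMIs in neutrophils and 4451 and 6085 UMIs in T cells of the IL-27 and control matrices.

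Although the labels call the cells lymphocytes, the members carried macrophage transcripts. The summed level of the 10 macrophage markers outside the rule was 7887 CPM (UMIs scaled to 1000000 per class and matrix) in IL-27 and 7849 in control members. It was 6747 and 6599.9 in Arg1-low macrophages of the IL-27 and control matrices. Among barcodes outside the gate it was 2675 in the IL-27 matrix and 3459 in the control matrix. All 10 were detected in the members of both matrices, but so were all 8 neutrophil and all 8 monocyte markers, so detection alone does not set the type. Cd14, the co-receptor for bacterial lipopolysaccharide, stood at 979 CPM in IL-27 and 1079 in control members, and Csf1r, the receptor of the macrophage growth factor, at 253 in IL-27 and 243 in control members. The C1q genes lie side by side on chromosome 4 (C1qb at chr4:136880129-136886187 and C1qa at chr4:136895917-136898803, minus strand, GRCm38). C1qa was at 961 CPM in IL-27 and 976 in control members, against 1012 and 946 in Arg1-low macrophages of the IL-27 and control matrices. C1qb was at 858 in IL-27 and 1000.4 in control members, against 916 and 970.0 in Arg1-low macrophages of the IL-27 and control matrices. Among barcodes outside the gate C1qa was at 22.3 in the IL-27 matrix and 26.5 in the control matrix. C1q UMIs admitted both classes by the same cutoff, so these levels follow from the rule and are a description.

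Pf4 and Ppbp, 2 chemokines best known from platelet granules, were the markers that followed Arg1. They are neighbours on chromosome 5, Ppbp at chr5:90768518-90770063 and Pf4 at chr5:90772435-90773383, both on the plus strand (GRCm38) and 2371 bases apart. Pf4, platelet factor 4, was at 3322 CPM in IL-27 and 4252 in control members, against 1328 and 996 in Arg1-low macrophages of the IL-27 and control matrices, ratios of 2.50 and 4.27 in the IL-27 and control matrices. Ppbp, the precursor of further platelet chemokines, was at 329.9 CPM in IL-27 and 498 in control members, against 55.9 and 148 in Arg1-low macrophages of the IL-27 and control matrices, ratios of 5.90 and 3.37 in the IL-27 and control matrices. Pf4 was broad, with a UMI in 80.0% of IL-27 and 83.6% of control members, while Ppbp was found in 19.0% of IL-27 and 24.9% of control members. Pf4 was also broad in Arg1-low macrophages, with a UMI in 62.3% in the IL-27 matrix and 60.9% in the control matrix. At a fixed 1000 UMIs Pf4 was found in 66.8% of IL-27 and 72.9% of control members. These shares were 48.0% and 43.1% in Arg1-low macrophages of the IL-27 and control matrices. In Arg1-low macrophages 1 barcode held 32.6% of the Ppbp UMIs in the IL-27 matrix and 35.6% in the control matrix. At a fixed 1000 UMIs, Ppbp was found in 12.6% of IL-27 and 15.9% of control members, against 2.95% and 4.66% of Arg1-low macrophages and 0.344% and 0.402% of neutrophils of the IL-27 and control matrices. In the Mmp12 or Dcstamp group Ppbp was found at that depth in 5.06% of IL-27 and 6.87% of control barcodes. Its level in that group was 50.7 CPM in the IL-27 matrix and 86.1 in the control matrix. Over all barcodes outside the gate Ppbp stood at 16.0 CPM in the IL-27 matrix and 18.6 in the control matrix.

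Most defining genes of platelets were at 0. Of 11 platelet and megakaryocyte markers, Gp1ba, Gp1bb, Gp5, Gp6, Gp9, Nrgn and Tubb1 were among those with no UMI in the members of either matrix. The 11 together had 9 UMIs in IL-27 and 12 in control members, or 4.62 and 3.85 CPM in IL-27 and control members. The Pf4 and Ppbp UMIs of the members numbered 6476 and 643 in the IL-27 matrix and 13245 and 1551 in the control matrix.

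The starts of both genes are shown because this neighbouring pair followed Arg1. The windows are 300 bases around the annotated start, from RefSeq (GRCm38.p6), at chr5:90768268-90768567 on the plus strand for Ppbp and chr5:90772185-90772484 on the plus strand for Pf4, written 5′ to 3′. Capitals mark the letters ACGTG, the core that hypoxia-inducible factors bind, or their reverse complement CACGT, and each of the pair has 1. On either strand the letters also occurred in 32.1% of measured genes and in 19.6% of all windows. Whether a factor binds at either start was not tested.
Ppbp: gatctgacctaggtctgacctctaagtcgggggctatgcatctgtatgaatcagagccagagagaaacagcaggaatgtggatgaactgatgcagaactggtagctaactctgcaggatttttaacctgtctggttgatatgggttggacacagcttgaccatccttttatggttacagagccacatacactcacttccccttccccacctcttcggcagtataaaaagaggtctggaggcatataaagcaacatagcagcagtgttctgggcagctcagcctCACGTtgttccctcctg
Pf4: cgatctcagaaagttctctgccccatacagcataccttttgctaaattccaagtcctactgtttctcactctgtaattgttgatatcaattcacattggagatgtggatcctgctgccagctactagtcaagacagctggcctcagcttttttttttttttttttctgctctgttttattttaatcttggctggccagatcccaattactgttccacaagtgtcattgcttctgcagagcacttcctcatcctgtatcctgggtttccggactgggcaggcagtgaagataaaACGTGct

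Across all genes, the members differed from Arg1-low macrophages in a limited set. Of 6804 genes with at least 50 UMIs in each matrix, leaving out the genes of the rule, 119 (1.75%) were at least 1.5-fold higher in the members of both matrices and 290 (4.26%) at least 1.5-fold lower. In single matrices 252 genes (3.7%) were higher and 668 (9.82%) lower in the IL-27 matrix, and 280 (4.12%) higher and 593 (8.72%) lower in the control matrix. The median log2 ratio of all genes was -0.08 in both matrices. The classes were cut by Arg1 in the same barcodes, so these ratios and all that follow on this contrast are descriptions with no test. The same barcode sequence occurred in both matrices 133 times, and 7 members of the IL-27 and 12 of the control matrix had such a barcode. The counts of the gene lists that follow stand beside these shares of 1.75% higher and 4.26% lower among all genes.

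Several of the genes that stood highest in the members code for secreted or matrix proteins. Spp1, the matrix protein osteopontin, was at 1713 CPM in IL-27 and 2581 in control members, against 335 and 501 in Arg1-low macrophages of the IL-27 and control matrices, ratios of 5.11 and 5.15. Mmp9, a gelatinase that cuts basement membrane collagen, was at 5556 CPM in IL-27 and 5699 in control members, against 1449 and 1402 in Arg1-low macrophages of the IL-27 and control matrices, ratios of 3.84 and 4.07. Both matrices thus showed nearly the same ratio for these genes. Serpinb2, an inhibitor of plasminogen activators, was at 150.3 in IL-27 and 194 in control members, against 30.1 and 30.4 in Arg1-low macrophages of the IL-27 and control matrices. Wfdc17, of the whey acidic protein domain family, was at 2418 in IL-27 and 2990.5 in control members, against 832 and 969.5 in Arg1-low macrophages of the IL-27 and control matrices. Fn1, fibronectin, was 2.60-fold higher in the IL-27 and 2.54-fold higher in the control matrix, the metallothionein Mt2 2.97-fold and 3.60-fold, and the transcription factor Ets1 2.81-fold and 2.54-fold in the IL-27 and control matrices. Spp1 was not particular to the class by level: barcodes outside the gate were at 2041 CPM in the IL-27 matrix and 2453 in the control matrix. In the Mmp12 or Dcstamp group under 3 C1q UMIs, Serpinb2 was at 162 CPM in the IL-27 matrix and 134 in the control matrix.

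**Figure D2:**
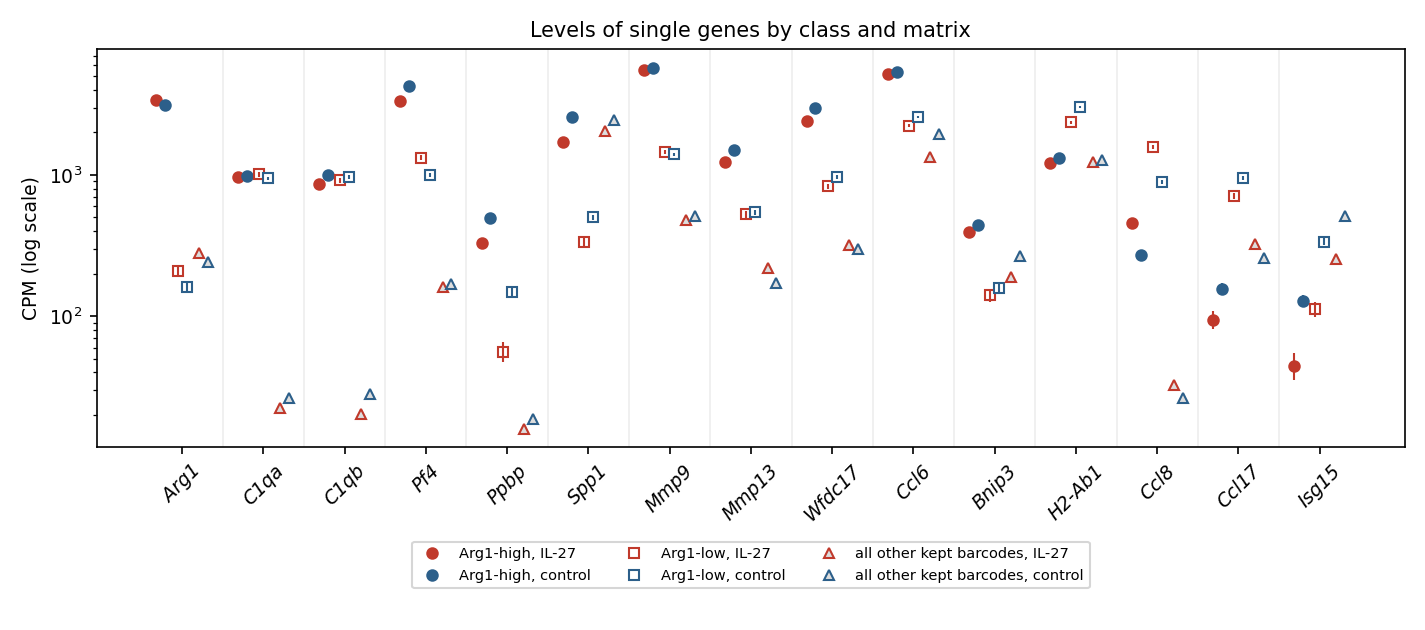
CPM (log scale) of single genes in Arg1-high macrophages (filled circles), Arg1-low macrophages (open squares) and all other kept barcodes (triangles), red for the IL-27 and blue for the control matrix, with exact Poisson intervals as vertical bars for the macrophage classes. The C1q genes admitted both macrophage classes by 1 cutoff and are shown as a description. Pf4, Ppbp, Spp1 and Mmp9 are higher in Arg1-high macrophages of both matrices, and H2-Ab1, Ccl8, Ccl17 and Isg15 are lower.

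Matrix remodelling genes had the largest share of higher genes among the 23 pathway lists. At least 1.5-fold higher in both matrices were 7 of 17 measured genes, the metalloproteinases Mmp8, Mmp9, Mmp12, Mmp13 and Mmp14, the surface protease Adam8 and Fn1, and 1 was lower, the protease inhibitor Timp1. The list's median log2 ratio was 0.24 in the IL-27 and 0.32 in the control matrix. Mmp13, a collagenase, was at 1244 CPM in IL-27 and 1514 in control members, against 527 and 545 in Arg1-low macrophages of the IL-27 and control matrices. Mmp12 was at 2329.7 in IL-27 and 2527 in control members, against 1253 and 1652 in Arg1-low macrophages of the IL-27 and control matrices. Mmp9 is also a neutrophil gene. The summed level of the 8 neutrophil markers outside the rule was 6266 CPM in IL-27 and 6496 in control members, against 2431 and 2616 in Arg1-low macrophages of the IL-27 and control matrices. Mmp9 alone made up 5556 of that sum in IL-27 and 5699 in control members. In Arg1-low macrophages it made up 1449 of the sum in the IL-27 matrix and 1402 in the control matrix. Without Mmp9 the rest of the sum was lower in the members than in Arg1-low macrophages of both matrices. After thinning to a fixed depth, Mmp9 was found in 72.9% of IL-27 and 75.9% of control members. In neutrophils these shares were 35.9% in the IL-27 matrix and 33.4% in the control matrix. The rule allowed up to 4 UMIs of S100a8 and S100a9 per barcode. The part of neutrophil RNA in these levels was not tested.

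Glycolysis and hypoxia genes were on the higher side in the members. Of 34 measured genes 7 were higher in both matrices and none lower, 26 lay above the Arg1-low level in both, and the medians were 0.48 in the IL-27 and 0.43 in the control matrix. Bnip3, which marks mitochondria for removal when oxygen is short, was at 396 CPM in IL-27 and 444 in control members, against 141 and 159 in Arg1-low macrophages of the IL-27 and control matrices. Egln3, an oxygen sensor that hydroxylates hypoxia-inducible factors, was at 185 in IL-27 and 158 in control members, against 64.6 and 51.2 in Arg1-low macrophages of the IL-27 and control matrices. The ratios were 2.80 and 2.79 for Bnip3 and 2.86 and 3.09 for Egln3 in the IL-27 and control matrices. Egln3 was not particular to the class: at a fixed 1000 UMIs it was found in 13.1% of IL-27 and 9.38% of control members. In the IL-27 and control matrices it was in 12.6% and 14.1% of the Mmp12 or Dcstamp group and 24.0% and 27.0% of neutrophils. Bnip3 was in 30.0% and 32.3% of members, 24.4% and 26.8% of that group and 16.8% and 23.3% of neutrophils. Car4, a carbonic anhydrase, was 5.70-fold higher in the IL-27 and 2.76-fold higher in the control matrix, the glycolytic enzyme Pgk1 1.67-fold and 1.70-fold and Ero1l, an oxidase of the endoplasmic reticulum, 1.98-fold and 2.20-fold in the IL-27 and control matrices. The value of Car4 in the IL-27 matrix moved widely, from a log2 ratio of 0.49 after thinning before the rule, which is under 1.5-fold, to 3.69 with at least 10 C1q UMIs. Car4 was at 240 CPM in IL-27 and 224 in control members. Outside the gate it was at 150 in the IL-27 matrix and 297 in the control matrix. Egln1 and the glycolytic enzyme Gpi1 were the other two. Hif1a, which codes for the oxygen-regulated factor itself, was level, at 774 CPM in IL-27 and 663 in control members, against 772 and 686 in Arg1-low macrophages of the IL-27 and control matrices, and so was the angiogenic factor Vegfa, at ratios of 0.980 and 1.07 in the IL-27 and control matrices. With every barcode thinned to 1000 UMIs before the rule, 16 of 23 genes of the list were higher. The 1.75% over all genes was taken without thinning, and 48 genes in all were higher after it. How many genes were measured after thinning is not given, so no share over all genes stands beside the 16 of 23. It cannot be read as a rise over the 7 of 34. At that depth 1 Arg1 UMI is enough to make a member, so the members differ too.

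Because these genes were higher together, the windows around 4 of their starts are shown (RefSeq, GRCm38.p6, 5′ to 3′), with the letters ACGTG or CACGT again in capitals. They lie at chr7:138909457-138909756 on the minus strand for Bnip3, chr12:54203825-54204124 on the minus strand for Egln3, chrX:106186850-106187149 on the plus strand for Pgk1 and chr11:84957504-84957803 on the plus strand for Car4. In Bnip3 the 2 overlap as CACGTG, which is also the letters of an E-box.
Bnip3: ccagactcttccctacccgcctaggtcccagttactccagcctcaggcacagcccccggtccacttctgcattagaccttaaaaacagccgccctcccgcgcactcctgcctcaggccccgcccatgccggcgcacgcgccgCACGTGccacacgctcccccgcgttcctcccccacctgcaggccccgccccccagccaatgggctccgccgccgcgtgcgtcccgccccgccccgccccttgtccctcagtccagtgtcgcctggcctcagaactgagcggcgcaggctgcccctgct
Egln3: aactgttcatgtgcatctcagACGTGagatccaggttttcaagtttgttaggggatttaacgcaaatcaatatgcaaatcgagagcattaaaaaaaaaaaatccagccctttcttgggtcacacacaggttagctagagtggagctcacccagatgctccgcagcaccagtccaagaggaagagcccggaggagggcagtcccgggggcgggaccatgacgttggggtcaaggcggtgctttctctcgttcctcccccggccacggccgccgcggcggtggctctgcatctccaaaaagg
Pgk1: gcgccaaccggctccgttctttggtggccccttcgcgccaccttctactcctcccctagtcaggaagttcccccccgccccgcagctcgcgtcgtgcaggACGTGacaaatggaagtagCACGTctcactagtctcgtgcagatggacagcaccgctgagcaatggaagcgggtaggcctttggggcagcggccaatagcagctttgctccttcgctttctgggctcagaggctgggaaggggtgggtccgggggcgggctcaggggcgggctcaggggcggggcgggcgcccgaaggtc
Car4: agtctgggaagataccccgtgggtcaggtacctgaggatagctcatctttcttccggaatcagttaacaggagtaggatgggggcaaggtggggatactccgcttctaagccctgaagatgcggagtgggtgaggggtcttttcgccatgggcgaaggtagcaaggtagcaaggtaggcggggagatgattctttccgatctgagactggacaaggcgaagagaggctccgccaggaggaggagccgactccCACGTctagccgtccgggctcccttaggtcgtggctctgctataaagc
The letters occurred on either strand in 5 of the 6 higher genes with a window in the table (all but Gpi1), in 24 of 32 genes of the list, in 1760 of 5488 measured genes (32.1%) and in 6447 of all 32851 windows (19.6%). Neither window around the starts of Spp1, which ranked highest among the genes named by rule in this contrast, holds the letters. A match describes the sequence and does not show that a factor binds there.

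Among 26 measured lipid-handling macrophage genes 8 were higher in both matrices, Abca1, Anxa2, Ctsd, Ctsl, Fabp5, Lgals1, Plin2 and Spp1, and 1 was lower, the lipoprotein Apoe, with medians of 0.30 in the IL-27 and 0.31 in the control matrix. Fabp5, a fatty acid binding protein, was at 1708 CPM in IL-27 and 2259.8 in control members, against 861 and 955 in Arg1-low macrophages of the IL-27 and control matrices. Apoe was at 587 in IL-27 and 591 in control members, against 1065 and 927 in Arg1-low macrophages of the IL-27 and control matrices. Each barcode weighing the same, in place of summed UMIs, left 5 of the 26 higher and 3 lower. Of iron handling and antioxidant genes, the metallothioneins Mt1 and Mt2 were higher, 2 of 23.

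Arginine genes other than Arg1 moved in part. Of 19 measured genes of arginine and polyamine metabolism 3 were higher in both matrices and none lower, and the medians were -0.01 in the IL-27 and -0.04 in the control matrix. Slc7a2, an arginine transporter of the cell membrane, was at 185 CPM in IL-27 and 202 in control members, against 99.1 and 119.8 in Arg1-low macrophages of the IL-27 and control matrices. Nos2, which makes nitric oxide from the same arginine, was at 35.9 in IL-27 and 61.0 in control members, against 11.5 and 19.7 in Arg1-low macrophages of the IL-27 and control matrices. Arg2, the mitochondrial arginase, was 1.57-fold higher in the IL-27 and 1.80-fold higher in the control matrix. Odc1, which turns the ornithine into putrescine, was at 1160.0 CPM in IL-27 and 1265 in control members, against 1283 and 1409 in Arg1-low macrophages of the IL-27 and control matrices.

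Genes of interleukin 4 activation, with which Arg1 is often grouped, were not among the higher ones. Of 21 measured alternative activation genes none was higher in both matrices and 6 were lower, Ccl17, Ccl22, Clec10a, Ear2, Irf4 and Pdcd1lg2, with medians of -0.41 in the IL-27 and -0.47 in the control matrix. Mrc1, the mannose receptor, was at 938 CPM in IL-27 and 799.7 in control members, against 799.7 and 459 in Arg1-low macrophages of the IL-27 and control matrices. Irf4, a transcription factor of interleukin 4 activation, was at 25.7 CPM in IL-27 and 16.7 in control members, against 71.8 and 83.4 in Arg1-low macrophages of the IL-27 and control matrices. Ccl17, a chemokine for T cells with the receptor CCR4, was at 93.9 CPM in IL-27 and 157 in control members, against 707 and 946 in Arg1-low macrophages of the IL-27 and control matrices. Ccl17 and Ccl22 are also made by mature dendritic cells, whose markers summed to 280.1 CPM in IL-27 and 465 in control members, against 1235 and 1493 in Arg1-low macrophages of the IL-27 and control matrices. Without barcodes holding dendritic cell transcripts 5 of the 21 genes were lower, with medians of -0.34 in the IL-27 and -0.43 in the control matrix.

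MHC class II genes, which present antigen to helper T cells, were lower in the members. At least 1.5-fold lower in both matrices were 5 of 10 measured genes, H2-Aa, H2-Ab1, H2-Eb1, H2-DMb1 and H2-DMb2, and none was higher, with medians of -0.69 in the IL-27 and -0.98 in the control matrix. H2-Ab1, a class II chain, was at 1216 CPM in IL-27 and 1321 in control members, against 2359.8 and 3045 in Arg1-low macrophages of the IL-27 and control matrices. H2-Eb1 was at 934 in IL-27 and 926 in control members, against 1830.1 and 2312 in Arg1-low macrophages of the IL-27 and control matrices. The Arg1-low group held more dendritic cell transcripts beside these, as given above for the mature dendritic cell markers. A UMI of Ccr7, Flt3, Xcr1, Clec9a or Cd209a was found in 15 IL-27 members (2.86%) and 14 control members (2.11%), against 63 (9.66%) and 100 (11.5%) Arg1-low macrophages of the IL-27 and control matrices. With all such barcodes left out the class II list had 5 of 10 genes lower and medians of -0.59 in the IL-27 and -0.85 in the control matrix.

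Interferon-stimulated genes were the largest group on the lower side, by number of genes. Of 28 measured type I interferon-stimulated genes 14 were lower in both matrices and none higher, with medians of -0.66 in the IL-27 and -0.79 in the control matrix. Isg15, a ubiquitin-like modifier, was at 44.1 CPM in IL-27 and 128 in control members, against 112 and 338 in Arg1-low macrophages of the IL-27 and control matrices. After thinning before the rule its log2 ratios were -0.53 in the IL-27 and -0.29 in the control matrix, under 1.5-fold in both, and 2 of the 4 genes of the list that could still be measured were lower. Ifi27l2a was at 272 in IL-27 and 505 in control members, against 570.1 and 1203 in Arg1-low macrophages of the IL-27 and control matrices. Of 21 genes induced by interferon gamma 9 were lower and 1, Nos2, was higher. Cxcl9, a chemokine that draws T cells through CXCR3, was at 43.1 CPM in IL-27 and 26.3 in control members, against 185 and 99.9 in Arg1-low macrophages of the IL-27 and control matrices. MHC class I presentation genes had 5 of 21 lower, H2-Q6, H2-T23, Psmb8, Psmb9 and Tap1, and none higher.

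Chemokines split in both directions. Ccl6, Ccl9, Cxcl1 and Cxcl3 were higher in both matrices and Ccl5, Ccl7, Ccl8, Ccl17, Ccl22, Cxcl9 and Cxcl10 lower, 4 and 7 of 20 measured. Ccl6 was at 5201 CPM in IL-27 and 5375 in control members, against 2231 and 2569 in Arg1-low macrophages of the IL-27 and control matrices. Cxcl3, a neutrophil attractant, was at 1572 in IL-27 and 2369.9 in control members, against 634 and 1135 in Arg1-low macrophages of the IL-27 and control matrices. Ccl8 was at 456 CPM in IL-27 and 272 in control members, against 1586 and 889 in Arg1-low macrophages of the IL-27 and control matrices. Resident and scavenger genes had 3 of 20 higher, Colec12, F13a1 and Msr1, and 6 lower, Axl, Cbr2, Cd36, Cd209f, Gas6 and Siglec1, with medians of -0.61 in the IL-27 and -0.02 in the control matrix.

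Cell cycle genes were lower, 8 of 19 in both matrices and none higher, with medians of -0.59 in the IL-27 and -0.75 in the control matrix. Mki67, a marker of cycling cells, was at 18.5 CPM in IL-27 and 26.0 in control members, against 34.5 and 41.5 in Arg1-low macrophages of the IL-27 and control matrices. Inflammatory activation genes had 3 of 20 higher, Il1a, Il6 and Saa3, and 1 lower, Irf5. This balance turned with the cutoffs: none was higher and 3 were lower with Arg1 at 0.05% or more, none and 2 of 17 with at least 10 C1q UMIs, 1 and 2 by the mean of single barcodes, and none and 1 of 14 after thinning. None of 44 oxidative phosphorylation genes passed 1.5-fold in both matrices, and of 17 housekeeping genes only Pgk1, which is also a glycolysis gene, did.

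**Figure D3:**
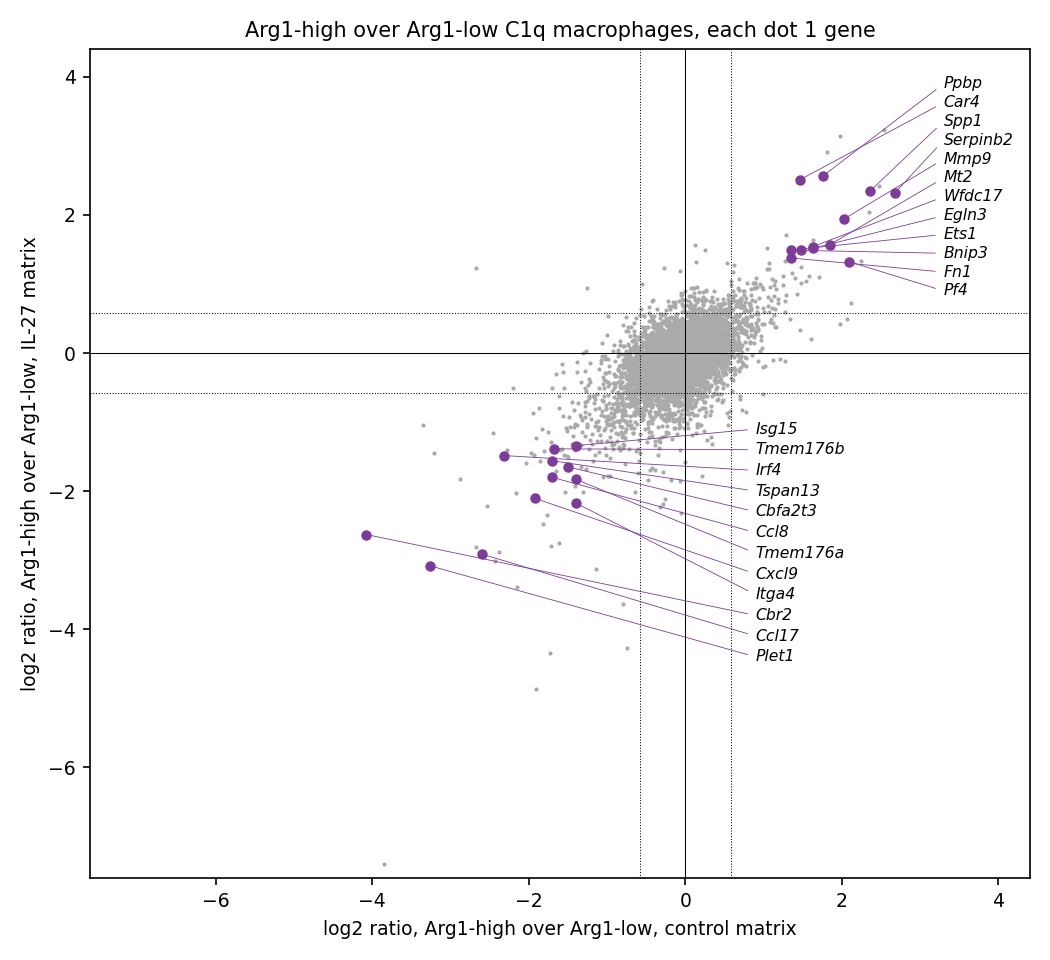
Log2 ratio of Arg1-high over Arg1-low macrophages for 6803 genes, IL-27 matrix on the vertical and control matrix on the horizontal axis, with dotted lines at 1.5-fold. Purple dots are the 12 highest and 12 lowest genes by the rule for named genes, which had to lie in the same direction in both matrices, from Ppbp and Spp1 at the top right to Plet1 and Cbr2 at the bottom left.

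Within the members, several of these genes followed the Arg1 share. The members of each matrix were cut into 4 equal bins by Arg1 share, with the highest bin starting at 0.490% in the IL-27 matrix and at 0.405% in the control matrix. Across the bins, low to high, Pf4 was at 1661, 2659, 3507 and 6042 CPM in the IL-27 matrix and 2377, 4316, 4754 and 5934 in the control matrix. Ppbp was at 127, 274, 323 and 666 CPM in the IL-27 matrix and 137, 497, 542 and 889.6 in the control matrix. Both chemokines stepped up with Arg1 in each matrix. H2-Ab1 ran the other way in the IL-27 matrix, with 1883, 1170.5, 963 and 684 CPM, and its top bin was also its lowest in the control matrix, with 2065, 1149, 1151 and 781. The ratio of top over bottom bin was 3.29 and 4.81 for Wfdc17, 2.63 and 1.70 for Mmp9, 2.86 and 1.91 for Fabp5, and 1.92 and 1.84 for Bnip3 in the IL-27 and control matrices. For C1qa it was 1.21 and 1.04 in the IL-27 and control matrices. The bins differed in depth, with medians of 2940.5 UMIs in the lowest and 2332 in the highest bin of the IL-27 matrix and 3776 and 3090 in those of the control matrix. The part of depth in these trends was not tested.

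**Figure D4:**
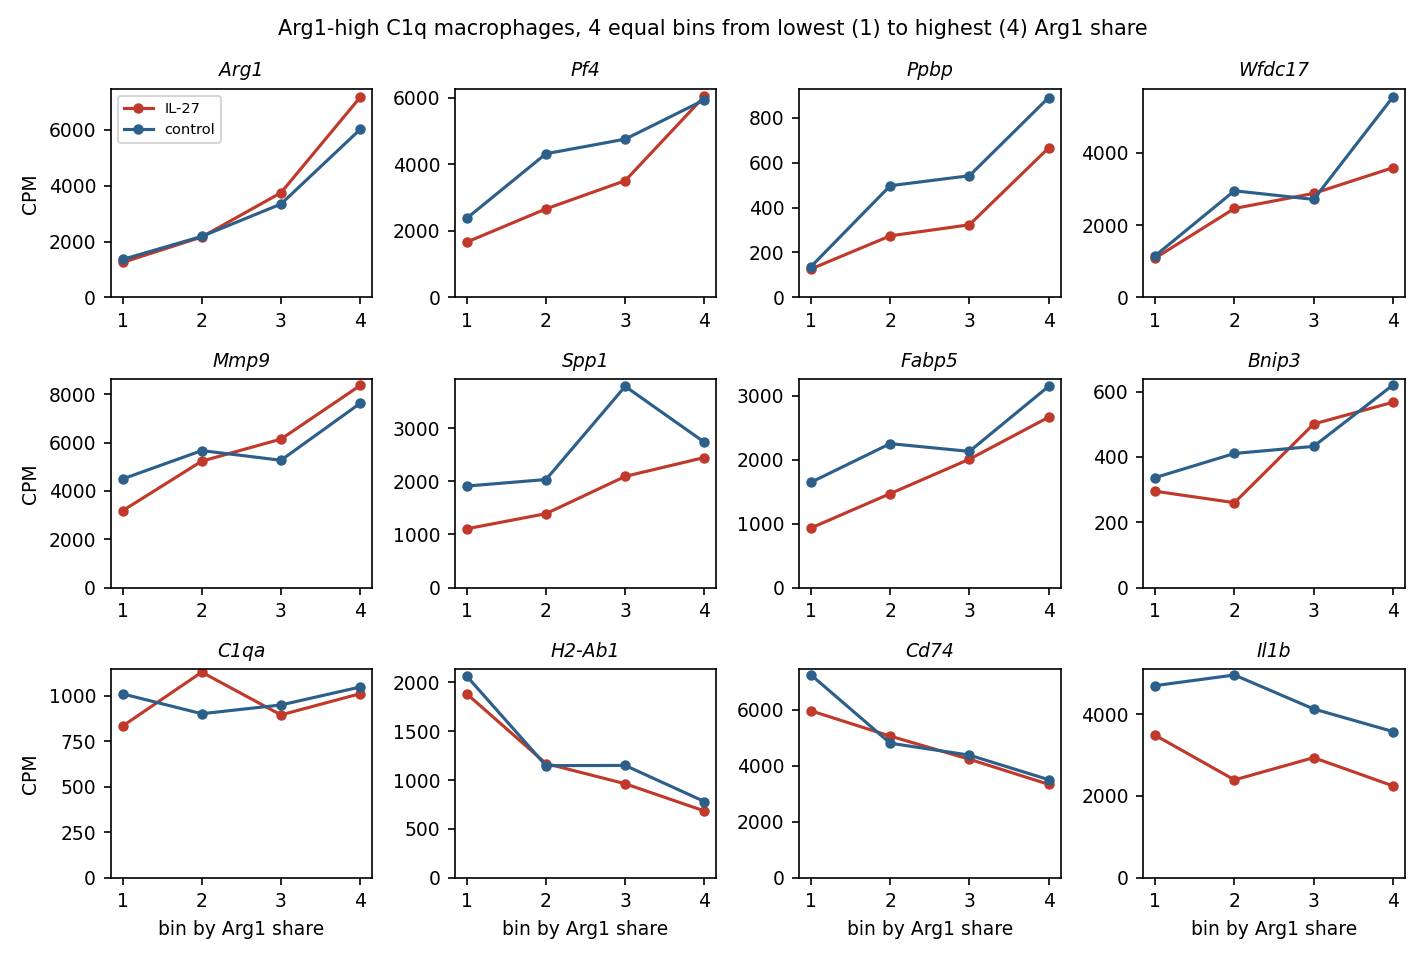
CPM of 12 genes (vertical axes, from 0) in members cut into 4 equal bins by Arg1 share, lowest (1) to highest (4), red for the IL-27 and blue for the control matrix. Pf4 and Ppbp climb over the bins in both matrices, Cd74 declines, and C1qa has no steady direction.

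The second comparison set the IL-27 members beside the control members, which the study's treatment implies. Of 6995 genes with at least 50 UMIs over both, 337 (4.82%) were at least 1.5-fold higher with IL-27 and 338 (4.83%) at least 1.5-fold lower, and the median log2 ratio was 0.02. In Arg1-low macrophages these were 489 (6.16%) and 362 (4.56%) of 7940. With 1 matrix per group a difference between matrices may be that of animals, capture or sequencing, which cannot be told apart from treatment here. The IL-27 library was shallower, and the noncoding transcript Gm42418 took 7.57% of UMIs in IL-27 and 4.64% in control members. The median log2 ratio was -0.05 for the 20% of genes with the shortest and 0.11 for the 20% with the longest transcripts.

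Pf4, Ppbp and Spp1 were below the control level in the IL-27 members. Arg1, which chose the members of both matrices by the same cutoff, is given as a description, at 3386 CPM in IL-27 and 3121 in control members. Pf4 had a ratio of 0.781 (0.758 to 0.805) and Ppbp of 0.663 (0.603 to 0.727). Spp1 was also lower, with a ratio of 0.664 (0.637 to 0.691) in the members and 0.669 in Arg1-low macrophages. In Arg1-low macrophages Pf4 went the other way, with a ratio of 1.33 (1.27 to 1.40), and Ppbp had a ratio of 0.379. Mmp9 differed little, at a ratio of 0.975 (0.952 to 0.999). None of 35 glycolysis and hypoxia genes, 17 matrix remodelling genes or 10 MHC class II genes passed 1.5-fold in either direction, with medians of -0.04, -0.02 and -0.03.

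Type I interferon-stimulated genes were lower with IL-27. Of 28 measured 11 were at least 1.5-fold lower and none higher, 25 lay below the control level, and the median log2 ratio was -0.49. Isg15 was at 44.1 CPM in IL-27 and 128 in control members, a ratio of 0.344 (0.269 to 0.435). Ifi27l2a was at 272 CPM in IL-27 and 505 in control members, a ratio of 0.539 (0.488 to 0.595). Oasl1, of the antiviral oligoadenylate synthetase family, was at 17.4 in IL-27 and 34.4 in control members, and Irf7, the factor that amplifies type I interferon, at 27.2 in IL-27 and 48.8 in control members. Ifitm1, an interferon-induced membrane protein, was at 783 in IL-27 and 1785 in control members. The difference was not confined to C1q macrophages. Outside the gate Isg15 was at 253 CPM in the IL-27 and 516 in the control matrix, and Ifi27l2a at 518 and 860. Arg1-low macrophages had the same list lower in 19 of 36 genes, with a median of -0.64. After thinning before the rule, 5 of these genes could be measured, 3 were lower and the median was -1.16.

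Inflammatory genes were lower as well. Of 21 measured 8 were at least 1.5-fold lower and none higher, namely Il1a, Il1b, Il6, Il23a, Nfkbiz, Saa3, Tnf and Tnfsf9, with a median of -0.49, and in Arg1-low macrophages 5 of 21 were lower with a median of -0.09. Il1b, the pyrogenic cytokine, was at 2802 CPM in IL-27 and 4364 in control members, a ratio of 0.642 (0.622 to 0.663), against 3234 and 5038 in Arg1-low macrophages of the IL-27 and control matrices. Tnf, the tumour necrosis factor, was at 122 in IL-27 and 189 in control members, a ratio of 0.647 (0.554 to 0.753). Its ratio in Arg1-low macrophages was 1.06, and the difference between the classes was not tested. Nfkbiz, a coactivator of NF-kB targets, was at 97.5 in IL-27 and 171 in control members. Saa3 was at 19.0 in IL-27 and 77.7 in control members, where 1 barcode held 52.1% of its control UMIs. Cxcl1 and Cxcl3 were lower too, at ratios of 0.595 and 0.664. After thinning before the rule 2 of 14 inflammatory genes were lower and 1 higher, with a median of -0.13.

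Scavenger and resident macrophage genes stood on the higher side. Of 18 measured 7 were higher and none lower, Axl, Cd36, Cd163, Gas6, Lyve1, Maf and Stab1, with a median of 0.26, and in Arg1-low macrophages 10 of 21 were higher with a median of 0.55. Stab1, a scavenger receptor, was at 109 CPM in IL-27 and 62.6 in control members, a ratio of 1.74 (1.42 to 2.12), and its log2 ratio was 0.58 in barcodes with at least 2000 UMIs, just under 1.5-fold. Maf, a transcription factor of resident macrophages, was at 248 in IL-27 and 144 in control members, a ratio of 1.72 (1.51 to 1.96). The Maf difference was not confined to C1q macrophages. Outside the gate Maf was at 82.7 CPM in the IL-27 matrix and 39.7 in the control matrix. Cd163, the scavenger receptor for hemoglobin, was at 81.6 in IL-27 and 52.0 in control members, a ratio of 1.57 (1.25 to 1.96). Lyve1 rested on 26 UMIs in IL-27 and 26 in control members, and its interval of 0.892 to 2.86 included 1. At a fixed 1000 UMIs Maf was found in 23.3% of IL-27 and 15.2% of control members, Stab1 in 10.8% and 7.04% and Cd163 in 8.35% and 7.20% of IL-27 and control members. At that depth Maf was also found in 30.8% of IL-27 and 12.95% of control T cells. In neutrophils its shares went the other way, 0.574% in the IL-27 matrix and 0.964% in the control matrix. Thinning before the rule left 2 of 11 genes of the list higher, with a median of 0.25. With ratios centred on genes of like transcript length, 5 of the 18 were higher and 1 lower, with a median of 0.16. Without the top barcode of each gene 5 were higher and 1 lower, with a median of 0.24.

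**Figure D5:**
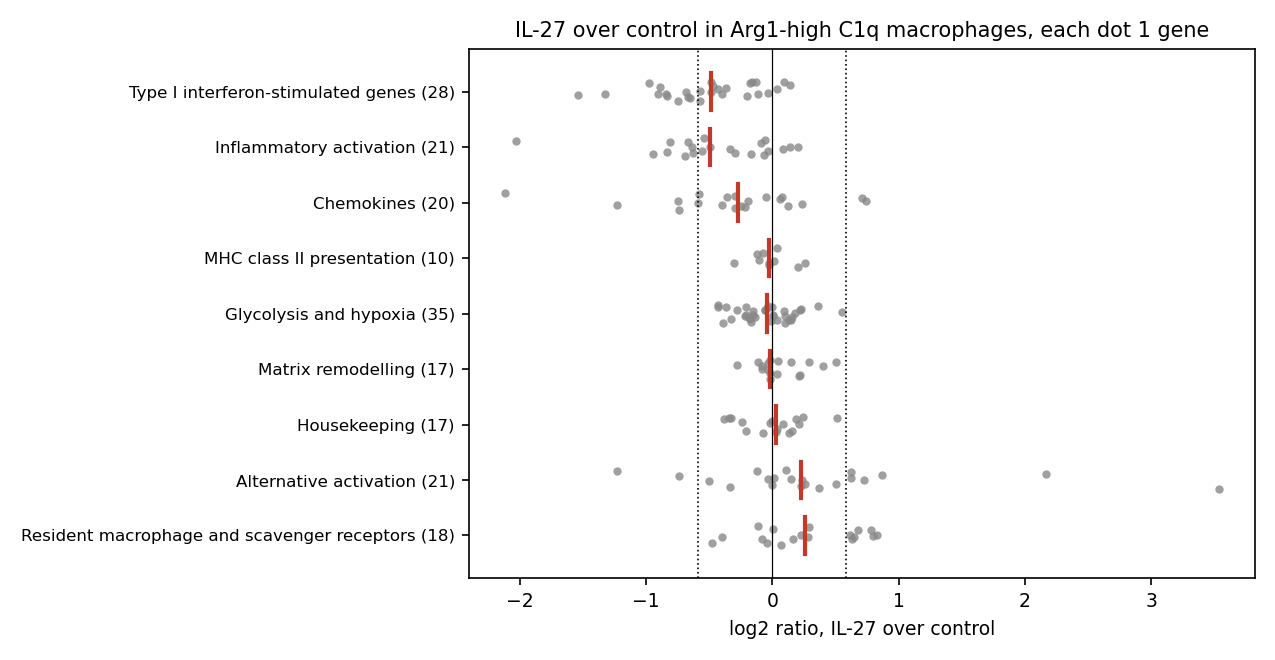
Log2 ratio of IL-27 over control in Arg1-high macrophages for the measured genes of 9 lists (number in brackets), each dot 1 gene and each red bar the list's median, with dotted lines at 1.5-fold. Interferon-stimulated and inflammatory genes lie mostly left of 0 with medians of -0.49, resident and scavenger genes have a median of 0.26, and class II, hypoxia, matrix and housekeeping genes centre near 0.

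The single genes furthest apart between the treatments came from several groups. S100a4, a calcium-binding protein of motile cells, had the highest ratio of the genes named by rule, at 249 CPM in IL-27 and 111 in control members (ratio 2.24, 1.95 to 2.58). Nr4a2, an orphan nuclear receptor, was at 75.9 in IL-27 and 39.8 in control members, and Gas6, the ligand of the receptor Axl, at 51.3 in IL-27 and 28.9 in control members. Neat1, a nuclear noncoding RNA, Rab8b, a small GTPase, Impact, Rnase2a, Stmn1, Pmepa1 and Dnajb1 had ratios from 1.71 to 2.17. On the lower side, Klf2, a transcription factor that restrains macrophage activation, was at 51.8 CPM in IL-27 and 118 in control members. Tbc1d8, Fcrlb, Dpep2, Coro1b, Ccdc12 and Phpt1 had ratios from 0.380 to 0.528. After thinning before the rule Gas6, Dnajb1, Pmepa1, Stmn1, Ccdc12 and Phpt1 were under 1.5-fold, with log2 ratios of 0.18, 0.21, 0.40, 0.55, -0.26 and -0.36. Neat1 was at 0.33 with Arg1 at 0.2% or more. Ccr2, the receptor that brings monocytes into tissue, was at 55.9 in IL-27 and 27.3 in control members, a ratio of 2.05 (1.53 to 2.75), and the monocyte markers summed to 1615 CPM in IL-27 and 1301 in control members. Fibroblast markers summed to 39.5 CPM in IL-27 and 5.14 in control members.

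Of 21 alternative activation genes 6 were higher with IL-27, Cd200r1, Chil3, Clec10a, Ear2, Irf4 and Retnla, and 2 lower, Ccl17 and Ccl22, with a median of 0.23. These were low genes: among genes with at least 200 UMIs 2 of 14 were higher and the median was 0.05. Retnla, a secreted resistin-like protein of interleukin 4 activation, was found in 11 IL-27 and 3 control members. Its UMIs numbered 298 in IL-27 and 41 in control members, and 1 barcode held 53.7% of them in the IL-27 and 63.4% in the control matrix.

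The receptor subunit Il27ra was hardly seen in the members. It had 0 UMIs in 525 IL-27 members, which allows a share of barcodes with a UMI of up to 0.571% by a limit of 3 counts, and 3 UMIs in 663 control members. Il6st, the shared subunit gp130, was at 39.0 CPM in IL-27 and 22.8 in control members, a ratio of 1.71 (1.22 to 2.40). Socs3, a feedback inhibitor that STAT3 induces, was at 180.1 in IL-27 and 262 in control members, a ratio of 0.687 (0.604 to 0.779). Of 16 measured genes of the IL-27 receptor and STAT signalling list 1 was higher, Il6st, and 1 lower, Il10ra, with a median of 0.02. Cd274, the checkpoint ligand PD-L1, was at 140.1 CPM in IL-27 and 162 in control members, a ratio of 0.866 (0.744 to 1.00).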

How the data were processed

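The authors deposited 1 matrix of UMI counts per group, which the file headers credit to Cell Ranger 4.0.0. Seurat 3.2.0 and the mm10 build are named in the submitters' processing notes. Libraries were 10x Chromium 5' v2 per the labels' protocols. The IL-27 matrix held 43868189 UMIs (median 1847 per barcode) and the control matrix 54049661 (median 2384.5). Of the barcodes 9990 and 10617 of the IL-27 and control matrices passed the filters on genes, UMIs and mitochondrial share. UMIs were summed per class and matrix and given as CPM (scaled to 1000000), with exact Poisson intervals. Ratios carry exact binomial intervals, and shares carry exact Clopper-Pearson intervals. Genes needed 50 UMIs over the classes compared, and genes of the rule were left out. A change is a ratio past 1.5-fold, and no p-value was computed because each group is 1 sample. Named genes were the 12 highest and 12 lowest with at least 100 UMIs and a UMI in at least 10% of barcodes, beside genes of the pathway lists named for their role. Clec7a, Sepp1 and Mx2 were not matched by symbol. Doublets were not removed, which Scrublet (scanpy 1.11.5) tested as an alternative. The scripts (Python 3.11.15) were tested on simulated data. The members, gene lists and rules were chosen with earlier results of these data known.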

Additional observations from a re-analysis of the deposited data

Results flagged for a closer look

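Each of the following 4 genes differed between the IL-27 and control matrices in one direction in Arg1-high macrophages and in the other direction in Arg1-low macrophages. With 1 matrix per group the difference between the classes was not tested.

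Nupr1, a stress-induced nuclear protein, was at 31.8 CPM in IL-27 and 58.8 in control members, a ratio of 0.541, and at 78.9 and 46.2 in Arg1-low macrophages of the IL-27 and control matrices, a ratio of 1.71. Klf2 was at 51.8 CPM in IL-27 and 118 in control members, a ratio of 0.437, and at 78.1 and 59.6 in Arg1-low macrophages of the IL-27 and control matrices, a ratio of 1.31. Nupr1 was found in 38 IL-27 and 119 control members, and Klf2 in 57 IL-27 and 162 control members. With at least 10 C1q UMIs the log2 ratio of Nupr1 in the members was -0.15, under 1.5-fold.

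Ccl5, a chemokine for T cells and monocytes, was at 13.9 CPM in IL-27 and 60.0 in control members, a ratio of 0.231, and at 267 and 101 in Arg1-low macrophages of the IL-27 and control matrices, a ratio of 2.65. It was found in 9 IL-27 and 26 control members, and 1 barcode held 29.6% of the IL-27 and 37.4% of the control UMIs. Retnla was at 153 CPM in IL-27 and 13.2 in control members, a ratio of 11.6, and at 65.0 and 83.8 in Arg1-low macrophages of the IL-27 and control matrices, a ratio of 0.776. It rested on 11 IL-27 and 3 control members, as given with the alternative activation genes.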

How the results depend on the processing

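The share of members moved with the cutoffs of the rule. Of kept barcodes it was 6.55% in the IL-27 and 7.52% in the control matrix with Arg1 at 0.05% or more, 3.43% and 4.08% with 0.2% or more, 4.46% and 5.59% with at least 3 Arg1 UMIs, and 6.70% and 7.22% in barcodes with at least 2000 UMIs. It was 1.54% and 2.67% with at least 10 C1q UMIs, a ratio of 0.578, 3.57% and 3.85% after thinning to 1000 UMIs, and 5.76% and 6.75% without barcodes holding dendritic cell transcripts, which was chosen after seeing the data. Of C1q macrophages it was 55.6% in the IL-27 and 52.2% in the control matrix at 0.05%, 29.1% and 28.3% at 0.2%, 37.9% and 38.8% with at least 3 Arg1 UMIs, 51.6% and 46.9% after thinning, and 40.1% in the IL-27 matrix with at least 10 C1q UMIs. In each of these alternatives the IL-27 share of kept barcodes was below the control share. Genes past 1.5-fold in both matrices numbered 119 higher and 290 lower in Arg1-high over Arg1-low macrophages. They were 48 and 63 after thinning, 189 and 483 with a minimum of 20 UMIs, and 61 and 102 with 200 UMIs. For IL-27 over control they numbered 337 higher and 338 lower, against 134 and 120 after thinning, 591 and 565 by the mean of single barcodes, 649 and 674 with a minimum of 20 UMIs, and 60 and 70 with 200 UMIs. Fewer genes can be measured after thinning or with a higher minimum. The log2 ratio of Fcrlb, IL-27 over control, turned to 0.15 after thinning, and the cause was not tested. Of the values of single genes under alternatives that can change them, 855 stayed within counting error, 224 moved and 1 reversed. Of the list medians 1140 stayed within an interval taken from the spread of the list's own genes, and 33 moved. That interval does not measure counting error and is wide for lists of few genes. Of the gene counts 50 stayed within 1.5 times and 14 moved. Doublet scores in the top 8% of each matrix were held by 28 IL-27 and 13 control members. No paired analysis was possible because each group is 1 matrix. Depth limits low genes such as Il27ra, Retnla and Lyve1.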

Other observations

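Immediate early genes, which rise within minutes of stimulation or of tissue handling, were lower in Arg1-high than in Arg1-low macrophages in 5 of 25 measured genes, Btg2, Egr1, Fos, Fosb and Ier5, and higher in 1, Rhob. Egr1 was at 107 CPM in IL-27 and 122 in control members, against 280 and 200 in Arg1-low macrophages of the IL-27 and control matrices. Among members, the heat shock genes Hspa1a, Hspa1b and Dnajb1 were higher with IL-27, and Hspa1a was at 111 CPM in IL-27 and 48.2 in control members. Its UMIs lay in 28 IL-27 and 33 control members. In Arg1-low macrophages the ratio of Hspa1a was 4.30.

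Of 18 measured growth factors and suppressive mediators 1 was higher in the members, Nt5e, which makes adenosine at the cell surface, and 3 were lower, Areg, Igf1 and Tgfbr1. Nt5e was 2.52-fold higher in the IL-27 and 2.41-fold higher in the control matrix. Of 17 checkpoint ligands and inhibitory receptors none was higher and 4 were lower, Havcr2, Il4i1, Pdcd1lg2 and Pvr. Havcr2, which codes for TIM-3, was at 25.1 CPM in IL-27 and 21.2 in control members, against 47.6 and 51.4 in Arg1-low macrophages of the IL-27 and control matrices. Of 17 Fc and complement receptor genes the lectin Clec4d was higher, and the complement genes C4b and Cfb were lower, Cfb at ratios of 0.383 and 0.335 in the IL-27 and control matrices. Of 18 cytokine receptors Cx3cr1, the fractalkine receptor of resident macrophages, and Il1rap were lower. With IL-27, Cx3cr1 was at 22.1 CPM in IL-27 and 7.70 in control members, a ratio of 2.86 (1.70 to 4.93). Of 12 genes of the integrated stress response Shmt2 was lower in the members.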
